A study of Mus musculus with 6 samples.

Results

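A set of 9 genes of nerve growth and nerve guidance were followed in mouse cornea: the ligands Bdnf, Ntf3 and Gdnf, the receptors Ngfr, Ntrk2 and Cntfr, and the guidance proteins Sema3a, Sema3f and Ntn1. They were chosen by gene symbol, and all 9 were found among the 35673 gene rows of the count table and passed the low-count filter with 18804 genes in all. Transcripts were counted by RNA sequencing of mRNA in 6 corneal libraries, 3 titled Cationorm and 3 titled Control. Both groups were male C57BL/6J mice, 6 to 8 weeks of age, with no transgene in the labels. Cationorm is an eye drop in the form of a positively charged oil emulsion, given as 5 µL per eye for 14 days. The labels describe it as a treatment of dry eye that had been induced by 0.1% benzalkonium chloride, an irritant preservative, and 6 h of contact lens wear per day. All 6 libraries carry the dry eye model tag and the same treatment tag, so whether the Control mice went through the model is not settled by the labels. The labels do not say whether each library came from its own animal or from pooled corneas, so each p-value reflects the spread between libraries only, which may be technical.

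The cornea is among the most densely innervated tissues of the body surface. Its sensory axons grow from cell bodies in the trigeminal ganglion, outside the sampled tissue, while epithelial cells and keratocytes make soluble factors that keep the axons alive and steer them. Neurotrophins such as BDNF and NT-3 act through Trk receptor kinases and the shared receptor p75. GDNF and CNTF act through receptor complexes of their own, and class 3 semaphorins and netrins attract or repel growing axons.

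The libraries held 32486043 to 39193311 counts. At this depth a count of 0 would allow at most 0.0952 CPM (counts scaled to library size, here by TMM library factors), taking 3 counts as the limit and covering counting error only. The lowest count of any of the 9 genes was 60, for Gdnf in Control 2. Krt12, the keratin that defines corneal epithelium, was at 8510, 9080 and 8590 CPM in Cationorm 1 to 3 and at 8840, 8790 and 8350 CPM in Control 1 to 3. Another keratin gene of the epithelium list, Krt14, was less even. It was at 1110, 696 and 1170 CPM in Cationorm and 746, 1790 and 673 CPM in Control. Of the 7 genes in that list 3 were fitted higher and 4 lower, with 0 called. They summed to between 56800 and 61400 CPM in Cationorm and between 54800 and 58700 CPM in Control libraries. Transcripts of neighbouring tissues were present too. The 8 photoreceptor genes summed to between 1650 and 5280 CPM in Cationorm and between 4270 and 6390 CPM in Control libraries, and the 8 genes of pigment cells, iris and ciliary body to between 1160 and 1470 CPM in Cationorm and between 422 and 1050 CPM in Control libraries. All 8 photoreceptor genes were fitted lower and all 8 pigment genes higher in Cationorm, with 0 called in either list. Lens genes summed to 1570, 3430 and 5530 CPM in Cationorm 1 to 3 and 71.3, 2830 and 2430 CPM in Control 1 to 3. Skeletal muscle genes summed to 70.1, 1360 and 624 CPM in Cationorm and 528, 88.9 and 890 CPM in Control. The 5 smooth muscle genes summed to between 224 and 316 CPM in Cationorm and between 96.6 and 171 CPM in Control libraries. All tested genes of these lists were fitted higher, with 0 called. The 8 sensory axon genes summed to between 22.8 and 55.6 CPM in Cationorm and between 45.9 and 100 CPM in Control libraries. The 5 that were tested were all fitted lower in Cationorm, with 0 called. Among the 8, the sodium channel gene Scn10a had no count in any library. Calca, which encodes the neuropeptide CGRP, stayed at or below 0.346 CPM. The neurofilament gene Nefl was at 10.8, 10.0 and 25.1 CPM in Cationorm 1 to 3 and at 51.0, 30.7 and 23.7 CPM in Control 1 to 3, and it is expressed in retinal neurons as well.

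All 9 genes were detected in every library, and for none of them did Cationorm and Control libraries separate. Sema3f, Ntf3 and Cntfr were nearly level across the 6 libraries, whereas Gdnf and Sema3a varied about as much within a group as between groups. With the edgeR quasi-likelihood test, adjusted over all genes, 0 of the 9 genes were called, as were 0 of 18804 genes in all (0%). At an unadjusted p under 0.05 it called 0 of the 9, against 8.73% of all genes. DESeq2 and limma-voom, also with all 6 libraries, called 0 of the 9, at adjusted and at unadjusted p. Of all genes DESeq2 called 0.383% and limma-voom 0% at an adjusted p, and 5.53% and 11% at an unadjusted p under 0.05. The libraries of the groups overlapped for all 9 genes, while they did not overlap for 14.8% of all genes tested. The fitted log2 fold change of Cationorm over Control was above 0 for 7 of the 9, as it was for 51.2% of all genes.

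**Figure D1:**
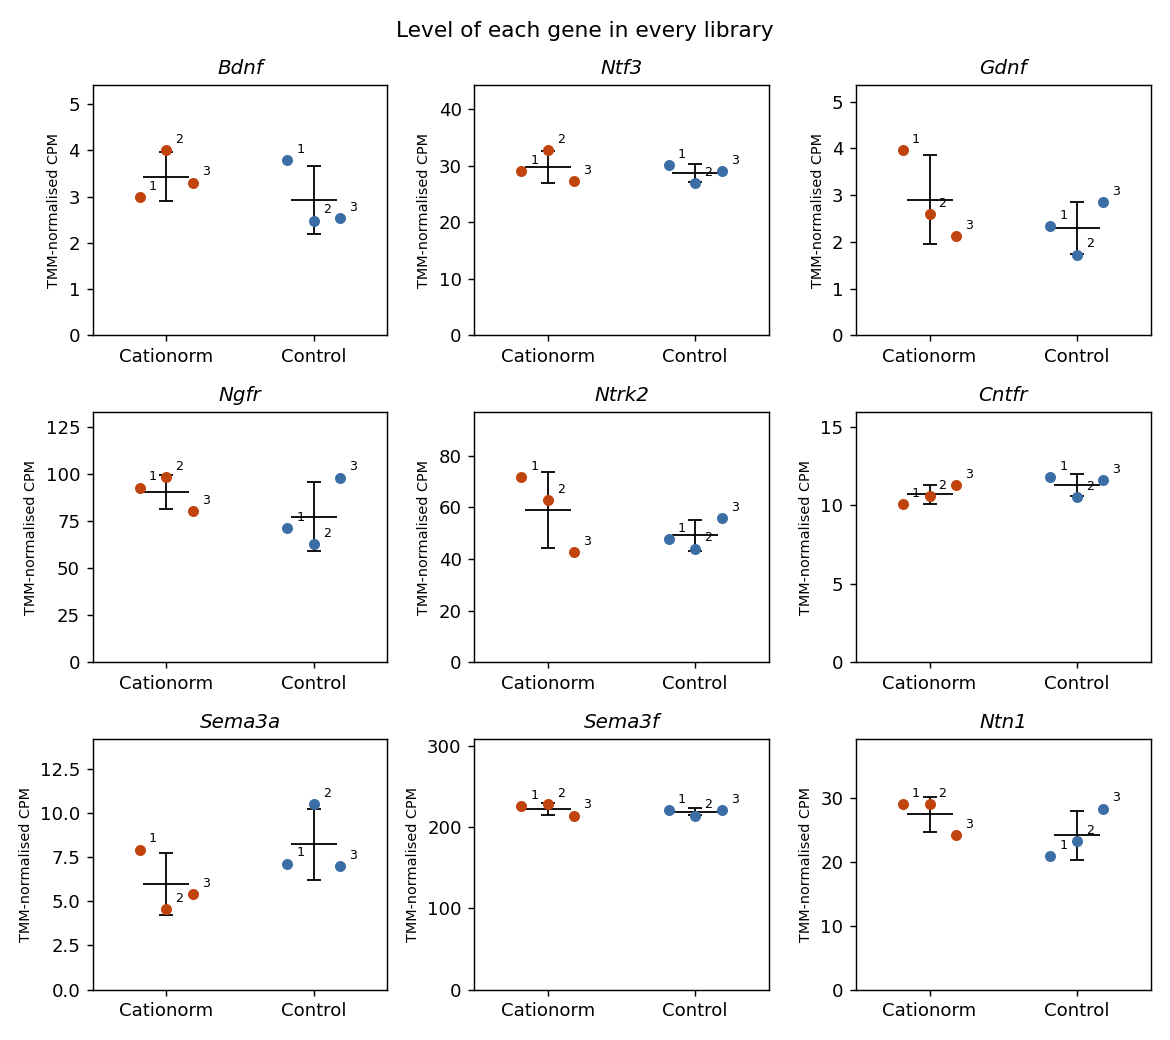
TMM-normalised CPM of the 9 genes in each library, Cationorm left and Control right. Points are libraries with their replicate number, and the bars give the mean and SD of each group (n = 3). The groups overlap for every gene, with a tight cluster for Sema3f between 214 and 228 CPM and a wide one for Gdnf between 1.73 and 3.97 CPM.

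Compared per kilobase of annotated exon, the genes differed far more from each other than between groups. Sema3f stood highest at 42.8 ± 1.46 CPM per kb in Cationorm and 42.1 ± 0.778 CPM per kb in Control (mean ± SD, n = 3 each). Ngfr followed at 26.2 ± 2.67 and 22.4 ± 5.34 CPM per kb in Cationorm and Control, and Ntf3 at 17.3 ± 1.64 and 16.7 ± 0.949. The guidance ligand Ntn1 and the receptors Cntfr and Ntrk2 formed a middle level, with means over all libraries of 4.12, 3.95 and 2.81 CPM per kb. Gdnf, Bdnf and Sema3a formed the lowest level, at 0.708, 0.512 and 0.511 CPM per kb. From the highest to the lowest gene the ratio of these means was 83.2. Of the 8 pairs of neighbours in this order, 3 were apart in every library: Sema3f above Ngfr, Ntf3 above Ntn1, and Ntrk2 above Gdnf. The ranges of the other 5 pairs overlapped. Exon lengths came from an annotation of an older genome build and pool all annotated transcripts, 19292 bases for Ntrk2 and 13868 for Sema3a, so a level per kb is too low where shorter transcripts are made.

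**Figure D2:**
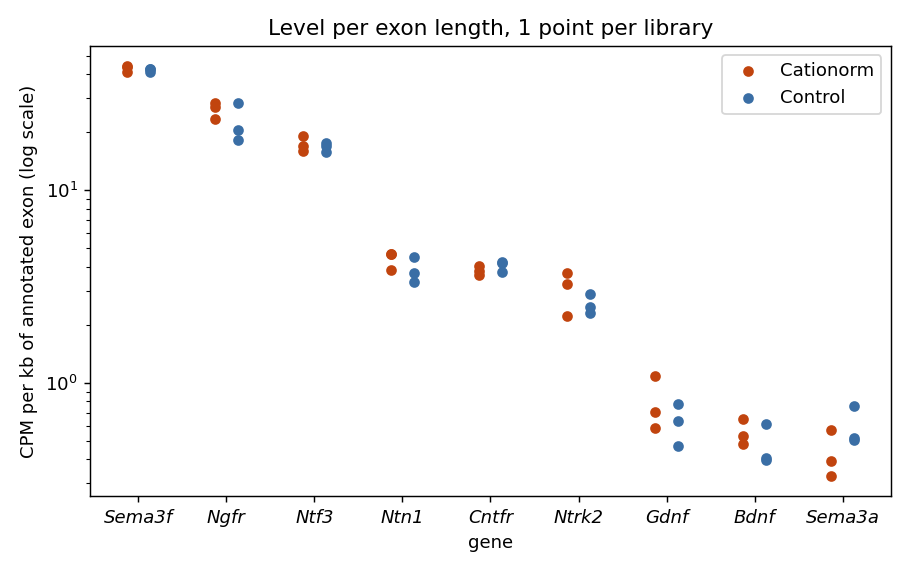
Level per kilobase of annotated exon for the 9 genes, ordered by their mean, on a log axis. Each point is 1 library, Cationorm left of Control for each gene. Sema3f, at 41.2 to 43.9 CPM per kb, lies above every library of Ngfr, and the lowest level holds Gdnf, Bdnf and Sema3a.

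Among the ligands, Bdnf encodes brain-derived neurotrophic factor, which binds the TrkB receptor. It had 94, 151 and 124 counts in Cationorm 1 to 3 and 151, 86 and 89 in Control 1 to 3. On the CPM scale these were 2.98, 4.01 and 3.30 in Cationorm, against 3.78, 2.48 and 2.53 in Control. Control 1 was as high as the Cationorm libraries and the other two Control libraries were the lowest, so the groups overlapped. The fitted fold of Cationorm over Control was 1.17, with a 95% interval from 0.792 to 1.73 (log2 fold change 0.23 ± 0.24 SE, adjusted p = 0.737 by edgeR). The log2 fold change was 0.45 without Control 1 and 0.08 without Cationorm 2. Counting error alone would give a coefficient of variation of 9.29% at this depth, against 19.9% over the 6 libraries. In the GRCm38 annotation a gene on the opposite strand, Gm45346, covers 14.4% of the exon bases of Bdnf, and without a stated strand setting its reads cannot be told from those of Bdnf.

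Ntf3 encodes neurotrophin-3, whose main receptor is TrkC, and it was the most abundant of the 3 ligands per kb. It was at 29.0, 32.8 and 27.3 CPM in Cationorm 1 to 3, against 30.1, 26.9 and 29.0 CPM in Control 1 to 3. These values lay within 1.22-fold of each other and no group stood out. The test gave a fold of 1.04, with an interval from 0.891 to 1.21 (adjusted p = 0.853). In counts Ntf3 exceeded Bdnf in every library, by 9.72, 8.19 and 8.29 times in Cationorm 1 to 3 and by 7.96, 10.8 and 11.4 times in Control 1 to 3, before correction for length.

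Gdnf encodes glial cell line-derived neurotrophic factor, which signals through the receptor Ret together with a GFRα co-receptor. It was the scarcest in counts, with 125, 98 and 80 in Cationorm 1 to 3 and 93, 60 and 100 in Control 1 to 3. The levels were 3.97, 2.60 and 2.13 CPM in Cationorm and 2.33, 1.73 and 2.85 CPM in Control. Cationorm 1 was the highest library and Control 2 the lowest, and the rest were mixed between the groups. Cationorm over Control gave a fold of 1.26, and its interval from 0.764 to 2.06 was the widest on the side of higher levels (log2 fold change 0.33 ± 0.30 SE, adjusted p = 0.700). Its coefficient of variation over the libraries was 29.7%, against 10.4% from counting error. Without Cationorm 1 the log2 fold change was 0.04.

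Among the receptors, Ngfr encodes p75, which binds all neurotrophins and is made by Schwann cells and by basal epithelial cells as well as by neurons. It was at 92.7, 98.3 and 80.3 CPM in Cationorm 1 to 3, against 71.1, 62.8 and 98.0 CPM in Control 1 to 3. Control 3 lay with the Cationorm libraries and Controls 1 and 2 lay below all of them. The fitted fold was 1.17, with an interval from 0.891 to 1.54 (log2 fold change 0.23 ± 0.17 SE, adjusted p = 0.626). The log2 fold change was 0.43 without Control 3 (adjusted p = 0.230) and 0.08 without Control 2. Beside it, the 8 Schwann cell genes, of which 7 were fitted higher and 0 called, summed to 327, 319 and 311 CPM in Cationorm 1 to 3 and 289, 278 and 308 CPM in Control 1 to 3. The 7 vascular endothelium genes, all fitted higher and 0 called, summed to 105, 109 and 93.4 CPM in Cationorm and to 68.3, 61.1 and 110 CPM in Control. The vascular, Schwann cell, pigment and smooth muscle sums were all, like Ngfr, lowest in Control 2 and, among the Controls, highest in Control 3. The part of these cells in the level of Ngfr was not tested, and in bulk tissue fewer cells of a type and less RNA per cell cannot be told apart.

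Ntrk2 encodes TrkB, the receptor of BDNF, which exists in a full-length kinase form and in truncated forms that gene counts do not separate. It was at 71.8, 62.8 and 42.8 CPM in Cationorm 1 to 3, against 47.9, 44.1 and 55.8 CPM in Control 1 to 3. Cationorm 1 and 2 were the highest libraries and Cationorm 3 was the lowest of all, so the Cationorm group spanned the whole Control group. Its fitted fold was 1.2, with an interval from 0.884 to 1.63 (log2 fold change 0.26 ± 0.19 SE, adjusted p = 0.618). Without Cationorm 3 the log2 fold change was 0.45 (adjusted p = 0.142), and without Cationorm 1 it was 0.10. The photoreceptor sum was the highest of the Cationorm group in that same library, at 2120, 1650 and 5280 CPM in Cationorm 1 to 3, against 6390, 5510 and 4270 CPM in Control 1 to 3, and their part in the level of Ntrk2 was not tested. The ratio of Ntrk2 to Ngfr counts, which does not depend on library size, was 0.775, 0.639 and 0.533 in Cationorm 1 to 3 and 0.673, 0.703 and 0.569 in Control 1 to 3, again with overlap.

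Cntfr encodes the membrane-anchored receptor subunit for CNTF, which acts with the shared subunits gp130 and LIFR. It was at 10.1, 10.6 and 11.3 CPM in Cationorm 1 to 3, against 11.8, 10.5 and 11.6 CPM in Control 1 to 3. No library was more than 1.16-fold above another, and the coefficient of variation of 6.15% was close to the 5.02% expected from counting error. Its fitted fold was 0.947, with an interval from 0.789 to 1.14 (adjusted p = 0.808). Its ligand gene Cntf had 6, 7 and 6 counts in Cationorm 1 to 3 and 5, 3 and 1 in Control 1 to 3, and was removed by the low-count filter.

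Among the guidance genes, Sema3a encodes a secreted semaphorin that collapses the growth cones of sensory axons through neuropilin 1 and A-type plexins. It had 250, 172 and 204 counts in Cationorm 1 to 3 and 285, 365 and 246 in Control 1 to 3. The levels were 7.93, 4.56 and 5.43 CPM in Cationorm, against 7.13, 10.5 and 7.01 CPM in Control. Control 2 was the highest library and Cationorm 2 and 3 the lowest, but Cationorm 1 lay above Controls 1 and 3. Of the 9 genes Sema3a had the fitted change farthest from 0, a fold of 0.726 with an interval from 0.476 to 1.11 (log2 fold change -0.46 ± 0.26 SE, adjusted p = 0.566). The log2 fold change was -0.72 without Cationorm 1 (adjusted p = 0.862) and -0.26 without Control 2. The stromal proteoglycan gene Lum was likewise highest in Control 2 and lowest in Cationorm 2 and 3. It was at 261, 141 and 144 CPM in Cationorm 1 to 3 and 286, 352 and 225 CPM in Control 1 to 3. Of the other keratocyte genes, Aldh1a1 and Col5a1 were also highest in Control 2. In contrast, Dcn, Col1a1 and Ptgds were highest in Cationorm 1, and Kera in Control 1. Kera and Dcn were, like Lum, lowest in Cationorm 2 and 3, whereas Aldh1a1, Col1a1, Col5a1 and Ptgds were not. Ptgds was at 828, 698 and 587 CPM in Cationorm and 252, 248 and 557 CPM in Control, and it enters the sums below. Over the whole keratocyte list of 7 genes, with 3 fitted higher, 4 lower and 0 called, the sums were 3410, 2390 and 2320 CPM in Cationorm and 2690, 2720 and 2670 CPM in Control, and the part of these cells in the level of Sema3a was not tested.

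Sema3f encodes a semaphorin that acts mainly through neuropilin 2. It was at 226, 228 and 214 CPM in Cationorm 1 to 3, against 221, 214 and 221 CPM in Control 1 to 3. The 6 libraries lay within 1.06-fold of each other, the narrowest spread of the 9 genes. Its fold was fitted at 1.02, with an interval from 0.927 to 1.11 (adjusted p = 0.892). Sema3a counts were 0.0351, 0.0201 and 0.0254 times those of Sema3f in Cationorm 1 to 3 and 0.0322, 0.0491 and 0.0317 times in Control 1 to 3.

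Ntn1 encodes netrin-1, a secreted cue that attracts axons through DCC and repels them through UNC5 receptors. It was at 29.1, 29.1 and 24.3 CPM in Cationorm 1 to 3, against 20.9, 23.3 and 28.4 CPM in Control 1 to 3. Control 3 again lay among the Cationorm libraries, and Controls 1 and 2 were the lowest. The fitted fold was 1.14, with an interval from 0.914 to 1.41 (log2 fold change 0.18 ± 0.13 SE, adjusted p = 0.621). The log2 fold change was 0.32 without Control 3 (adjusted p = 0.310) and 0.09 without Control 1.

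Precision differed between the genes and set what the comparison could show. The interval lay inside a 1.5-fold change either way for 4 genes, Ntf3, Cntfr, Sema3f and Ntn1, and inside a 2-fold change for those and Bdnf, Ngfr and Ntrk2. The intervals of Gdnf and Sema3a reached past a 2-fold change on 1 side, so a change of that size lay within the error of these libraries. Exact two-sided permutation tests of the mean log2 CPM gave p between 0.2 and 0.7 for the 9 genes, where the smallest p that 3 libraries against 3 allow is 0.1. The median coefficient of variation over the 6 libraries was 17.7% for the 9 genes, against 10% for the 12834 tested genes in the same range of mean count. Their median log2 fold change was 0.18, against 0.01 for the tested genes in that range. The median of the 9 was 0.07 without Cationorm 1, 0.08 without Cationorm 2 or without Control 2, and 0.09 without Control 1. It was 0.13 without Control 3 and 0.25 without Cationorm 3.

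**Figure D3:**
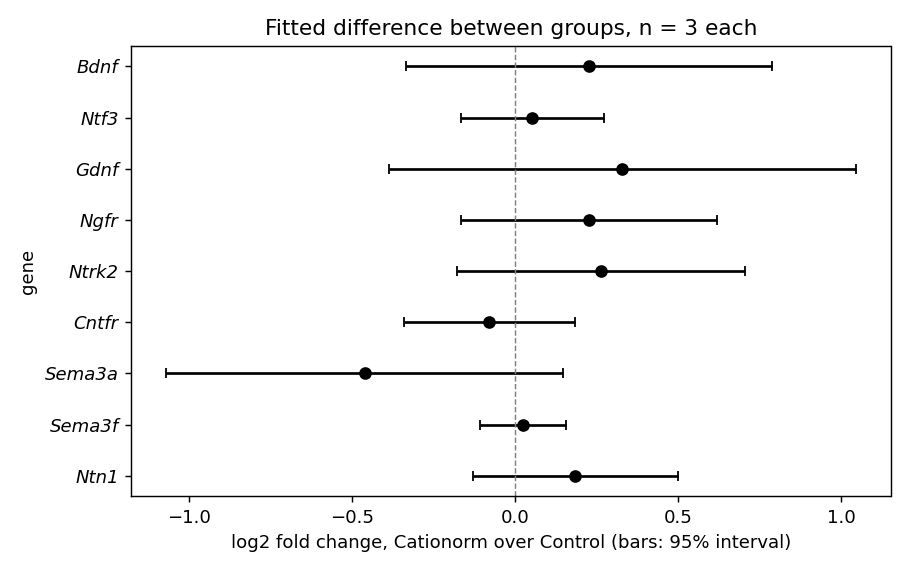
Fitted log2 fold change of Cationorm over Control for each gene (points) with its 95% interval (bars), from edgeR with 3 libraries a group. Every interval includes 0. The interval is narrowest for Sema3f and reaches furthest from 0 for Sema3a, down to -1.07, and for Gdnf, up to 1.05.

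Between libraries, some of the 9 genes deviated in a like way. Ngfr and Ntn1 were both above their own mean in Cationorm 1, Cationorm 2 and Control 3 and below it in the rest. The root mean square distance between their centred log2 profiles was 0.121, although each deviated from its own mean by more, 0.244 for Ngfr and 0.183 for Ntn1. Ntrk2 was above its mean in the same libraries, as was Gdnf. Sema3a went the other way in Cationorm 2 and Control 2, where it deviated by -0.59 and 0.62 while Ngfr deviated by 0.25 and -0.40 on the log2 scale. Of the 9 genes, 4 had their lowest level in Control 2 and 5 their highest in Cationorm 2. In Control 2 and Control 1 the smooth muscle, pigment, vascular and Schwann cell sums were also at their lowest.

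**Figure D4:**
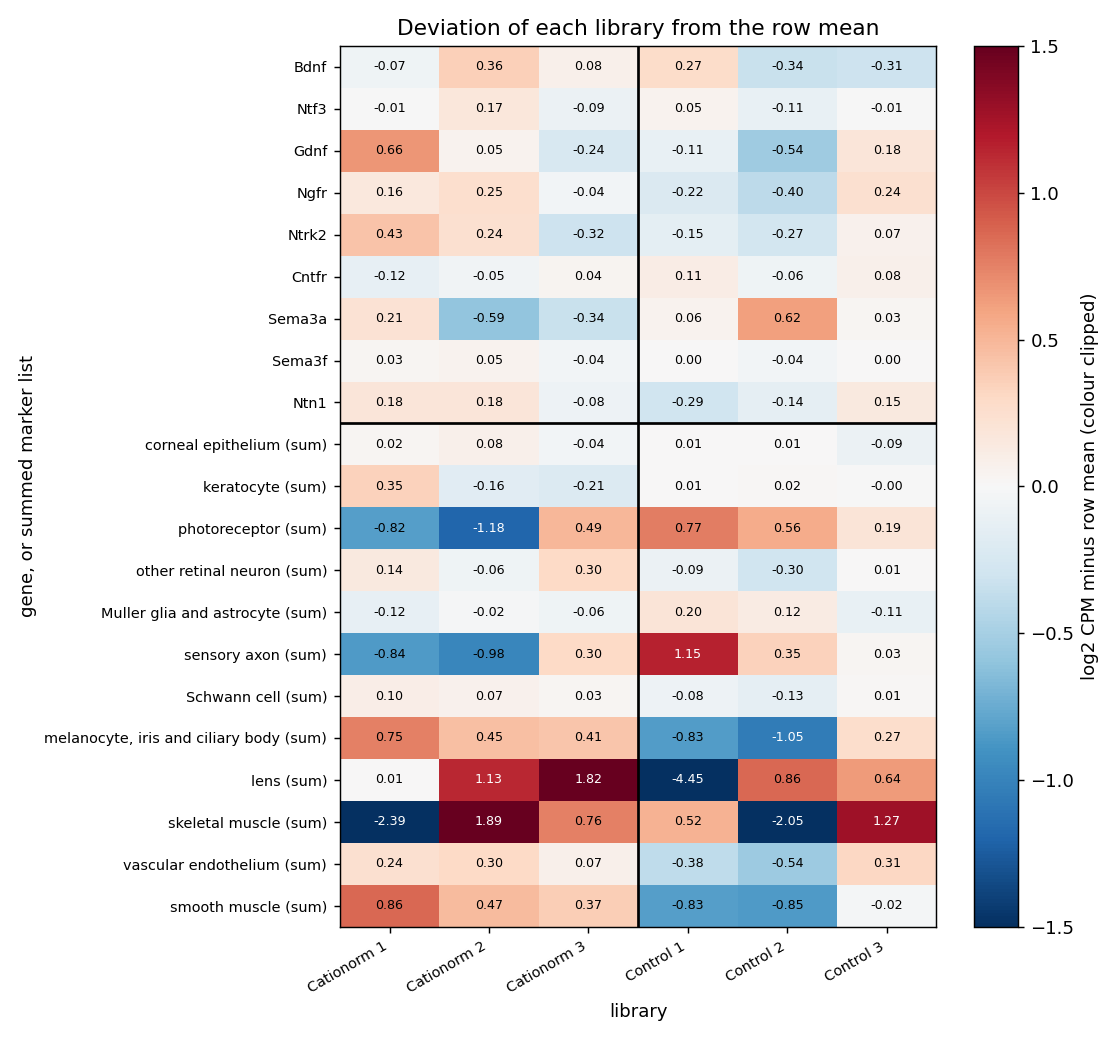
Log2 CPM of each gene (upper rows) and of the summed level of 12 marker lists (lower rows), each minus its own mean over the 6 libraries. Columns are libraries, Cationorm left of Control, red is above the row mean and blue below, with colours clipped at 1.5 and the values printed. Ngfr, Ntrk2, Gdnf and Ntn1 are above their mean in Cationorm 1, Cationorm 2 and Control 3, and Sema3a is highest in Control 2.

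RefSeq promoter windows of GRCm38.p6, an older build than the GRCm39 listed for these data, were at hand for 7 of the 9 genes, as 20 windows from 250 bases before to 50 bases after an annotated start. Shown here are the windows of the 3 genes with a single one, since these are the receptors Ngfr and Ntrk2, which deviated in a like way, and Sema3a, which went the other way in Cationorm 2 and Control 2. Capitals mark the GC box GGGCGG on either strand.
Ngfr: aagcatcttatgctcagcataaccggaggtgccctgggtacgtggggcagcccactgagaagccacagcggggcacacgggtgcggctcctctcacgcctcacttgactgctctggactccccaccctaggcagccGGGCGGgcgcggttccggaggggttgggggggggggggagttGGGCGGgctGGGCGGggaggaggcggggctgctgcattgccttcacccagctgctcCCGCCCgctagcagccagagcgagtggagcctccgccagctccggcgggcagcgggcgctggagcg
Ntrk2: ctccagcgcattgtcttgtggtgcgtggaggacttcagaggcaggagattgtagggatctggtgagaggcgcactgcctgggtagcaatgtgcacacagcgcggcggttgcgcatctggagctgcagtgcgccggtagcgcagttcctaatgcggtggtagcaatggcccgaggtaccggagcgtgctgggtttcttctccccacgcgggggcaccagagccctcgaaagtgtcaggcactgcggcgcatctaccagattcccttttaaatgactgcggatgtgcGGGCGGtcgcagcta
Sema3a: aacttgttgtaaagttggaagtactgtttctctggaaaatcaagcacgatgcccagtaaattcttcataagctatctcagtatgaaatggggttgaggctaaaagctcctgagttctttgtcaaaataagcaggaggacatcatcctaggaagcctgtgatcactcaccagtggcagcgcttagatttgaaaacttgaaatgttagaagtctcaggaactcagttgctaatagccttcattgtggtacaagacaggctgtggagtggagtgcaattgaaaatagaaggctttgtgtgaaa
The Ngfr window lies at chr11:95587649-95587948 on the minus strand, the Ntrk2 window at chr13:58806319-58806618 on the plus strand and the Sema3a window at chr5:13396534-13396833 on the plus strand. Ngfr holds 4 GC boxes, Ntrk2 holds 1 and Sema3a holds 0, and 35.7% of the 32851 windows in the table hold at least 1. G and C make up 71.7% of the Ngfr window, 61.3% of that of Ntrk2 and 41.3% of that of Sema3a, against a median of 52.7% over all windows. CG dinucleotides number 23, 23 and 2 in the same order, against a median of 7. A TATA box (TATAAA), a cyclic AMP response element (TGACGTCA) or an E box (CACGTG) was found on neither strand of these 3 windows, and 13.6%, 1.79% and 7.15% of all windows hold one. Only GC boxes were matched in these windows, so no motif overlaps another, and a match or its lack is a description of these letters only.

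The deposited annotation of gene function describes the 9 genes, and since they were chosen as nerve growth and guidance genes its terms follow from the choice. Of the 9, 6 are annotated to axon guidance (Bdnf, Ntf3, Ngfr, Sema3a, Sema3f and Ntn1), as are 162 genes or 0.454% of the table. To the negative regulation of neuron apoptosis 6 are annotated as well (Bdnf, Ntf3, Gdnf, Ngfr, Ntrk2 and Cntfr). Nerve development, a term of 20 genes in the table, holds 4 of them (Bdnf, Ntf3, Ngfr and Sema3f).

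Genes whose profile over the 6 libraries lay closest to each of the 9 were looked up by the distance between centred log2 CPM profiles. Closest to Sema3a were Col5a2, a chain of type V collagen, and Omd, a small leucine-rich proteoglycan, at root mean square distances of 0.0602 and 0.0862, where Sema3a itself deviated from its mean by 0.382. Col5a2 was at 54.4, 33.2 and 37.1 CPM in Cationorm 1 to 3, against 47.1, 68.4 and 44.7 CPM in Control 1 to 3. Closest to Ngfr were Spry1, an inhibitor of receptor kinase signalling (0.0248), and Idua, a lysosomal enzyme (0.0439). Spry1 was at 59.7, 64.5 and 52.3 CPM in Cationorm and 45.4, 41.0 and 61.1 CPM in Control. For Gdnf they were Fmod, the collagen-binding proteoglycan fibromodulin (0.131), and Reck, an inhibitor of matrix proteases (0.136). Bdnf had Zcwpw1 (0.0900) and Cbs (0.130), Ntf3 had Gpt (0.0207) and Il20rb (0.0277), and Ntrk2 had Arhgef6 (0.0667) and Gstt1 (0.0781). Cntfr had Sh3gl2 (0.0261) and Trio (0.0269), Sema3f had Ccdc82 (0.00845) and Pex19 (0.00968), and Ntn1 had Ston2 (0.0375) and Jak2 (0.0430). Over 6 libraries and at least 11654 candidate genes some profiles lie close in any data, so these are named as a description.

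The partners of these genes were read from the same fit, in 6 lists of 79 genes that include the 9. Of the 70 others, 68 passed the low-count filter. The edgeR quasi-likelihood test gave 0 calls among these 68, with 12 at an unadjusted p under 0.05 (17.6%, against 8.73% of all genes), 9 of them higher and 3 lower in Cationorm, where 5.16% and 3.57% of all genes were. That count and the share of all genes under 0.05 both moved with single libraries. The count was 5 without Cationorm 2 or without Control 1 and 6 without Cationorm 1 or without Control 2. In these fits 3.74% to 4.64% of all genes were under 0.05. The count was 21 without Cationorm 3 and 19 without Control 3, when 15.1% and 14.9% of all genes were. With the replicate number as a block the count was 7, when 4.67% of all genes were. DESeq2 called 1 gene of these lists, Sema3b, and limma-voom called 0. The groups did not overlap for 17 of the 68 (25.0%, against 14.8% of all genes). The median log2 fold change was 0.02 for the 68 and 0.01 for all genes tested.

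Among the 6 other neurotrophin genes, 0 were called at an adjusted p and the median log2 fold change was -0.05. Sort1, which encodes sortilin, a co-receptor of p75 for pro-neurotrophins, was at 144, 146 and 139 CPM in Cationorm 1 to 3, against 119, 112 and 137 CPM in Control 1 to 3 (log2 fold change 0.22 ± 0.09 SE, edgeR adjusted p = 0.550).

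Of the 13 other tested genes of the GDNF and CNTF families 0 were called, with a median of -0.09. Gfra1, the preferred co-receptor of GDNF, was at 25.0, 23.2 and 25.9 CPM in Cationorm 1 to 3, against 16.9, 13.7 and 21.6 CPM in Control 1 to 3. All 3 Cationorm libraries lay above all Control libraries (log2 fold change 0.50 ± 0.16 SE, adjusted p = 0.550). Control 2 was lowest and Control 3 the highest Control library, as in the vascular and pigment sums. The part of those cells in the level of Gfra1 was not tested. Il6st, which encodes gp130, the signalling subunit shared by the CNTF receptor, was at 123, 107 and 108 CPM in Cationorm, against 89.7, 83.6 and 107 CPM in Control (log2 fold change 0.27 ± 0.11 SE, adjusted p = 0.550).

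Among the 12 other genes of class 3 semaphorins, neuropilins and plexins 0 were called, 10 had a log2 fold change above 0, and the median was 0.16. Sema3b, a close relative of Sema3f, was at 41.1, 36.5 and 33.6 CPM in Cationorm 1 to 3, against 18.3, 17.4 and 27.9 CPM in Control 1 to 3 (log2 fold change 0.81 ± 0.19 SE, adjusted p = 0.550 by edgeR and 0.00647 by DESeq2). Its groups did not overlap, and Control 3 was the nearest Control library. The pigment, iris and ciliary body sum ran 1470, 1190 and 1160 CPM in Cationorm and 490, 422 and 1050 CPM in Control, and its part in the level of Sema3b was not tested. Nrp2, the neuropilin that binds SEMA3F, was at 31.5, 28.6 and 28.0 CPM in Cationorm, against 19.7, 23.5 and 25.5 CPM in Control (log2 fold change 0.36 ± 0.11 SE, adjusted p = 0.550). Sema3g, a semaphorin of vascular endothelium, averaged 6.55 ± 1.18 CPM in Cationorm and 4.20 ± 1.24 CPM in Control (SD, n = 3 each; adjusted p = 0.550 by edgeR). Sema3e, a ligand of plexin D1, was at 2.57, 2.15 and 2.87 CPM in Cationorm, against 3.68, 3.43 and 3.42 CPM in Control (log2 fold change -0.47 ± 0.19 SE, adjusted p = 0.550).

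Of the 10 other tested netrin genes 0 were called, with a median of 0.02. Ntn3, a netrin related to Ntn1, was scarce and at 3.14, 2.49 and 2.90 CPM in Cationorm 1 to 3, against 1.68, 1.33 and 1.48 CPM in Control 1 to 3 (log2 fold change 0.92 ± 0.21 SE, adjusted p = 0.550). Unc5d, a netrin receptor, was at 0.444, 0.637 and 1.81 CPM in Cationorm, against 2.48, 2.28 and 2.45 CPM in Control (log2 fold change -1.31 ± 0.49 SE, adjusted p = 0.550). Unc5d was highest among the Cationorm libraries in Cationorm 3, as was the photoreceptor sum, and the part of retinal transcripts in its level was not tested. Of the 7 slit and robo genes 0 were called and 0 had an unadjusted p under 0.05. The one with the smallest p was Robo4, a receptor of endothelial cells, at 6.00, 7.09 and 5.96 CPM in Cationorm, against 2.98, 3.20 and 5.92 CPM in Control (adjusted p = 0.550).

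Of the 20 ephrins and Eph receptors 0 were called, with 10 above and 10 below 0 and a median of 0.01. Efnb3, a ligand of EphB receptors, was at 2.76, 2.87 and 3.88 CPM in Cationorm 1 to 3, against 6.33, 5.16 and 4.47 CPM in Control 1 to 3 (log2 fold change -0.75 ± 0.22 SE, adjusted p = 0.550). Like the photoreceptor sum, Efnb3 was highest among the Cationorm libraries in Cationorm 3 and fell from Control 1 to Control 3. The part of retinal transcripts in the level of Efnb3 was not tested. Ephb4, a receptor of venous endothelium, averaged 48.0 ± 4.0 CPM in Cationorm and 38.9 ± 3.89 CPM in Control (SD, n = 3 each; adjusted p = 0.550 by edgeR). Epha2, a receptor abundant in epithelium, averaged 238 ± 26.1 CPM in Cationorm and 204 ± 6.89 CPM in Control (SD, n = 3 each; adjusted p = 0.550 by edgeR).

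**Figure D5:**
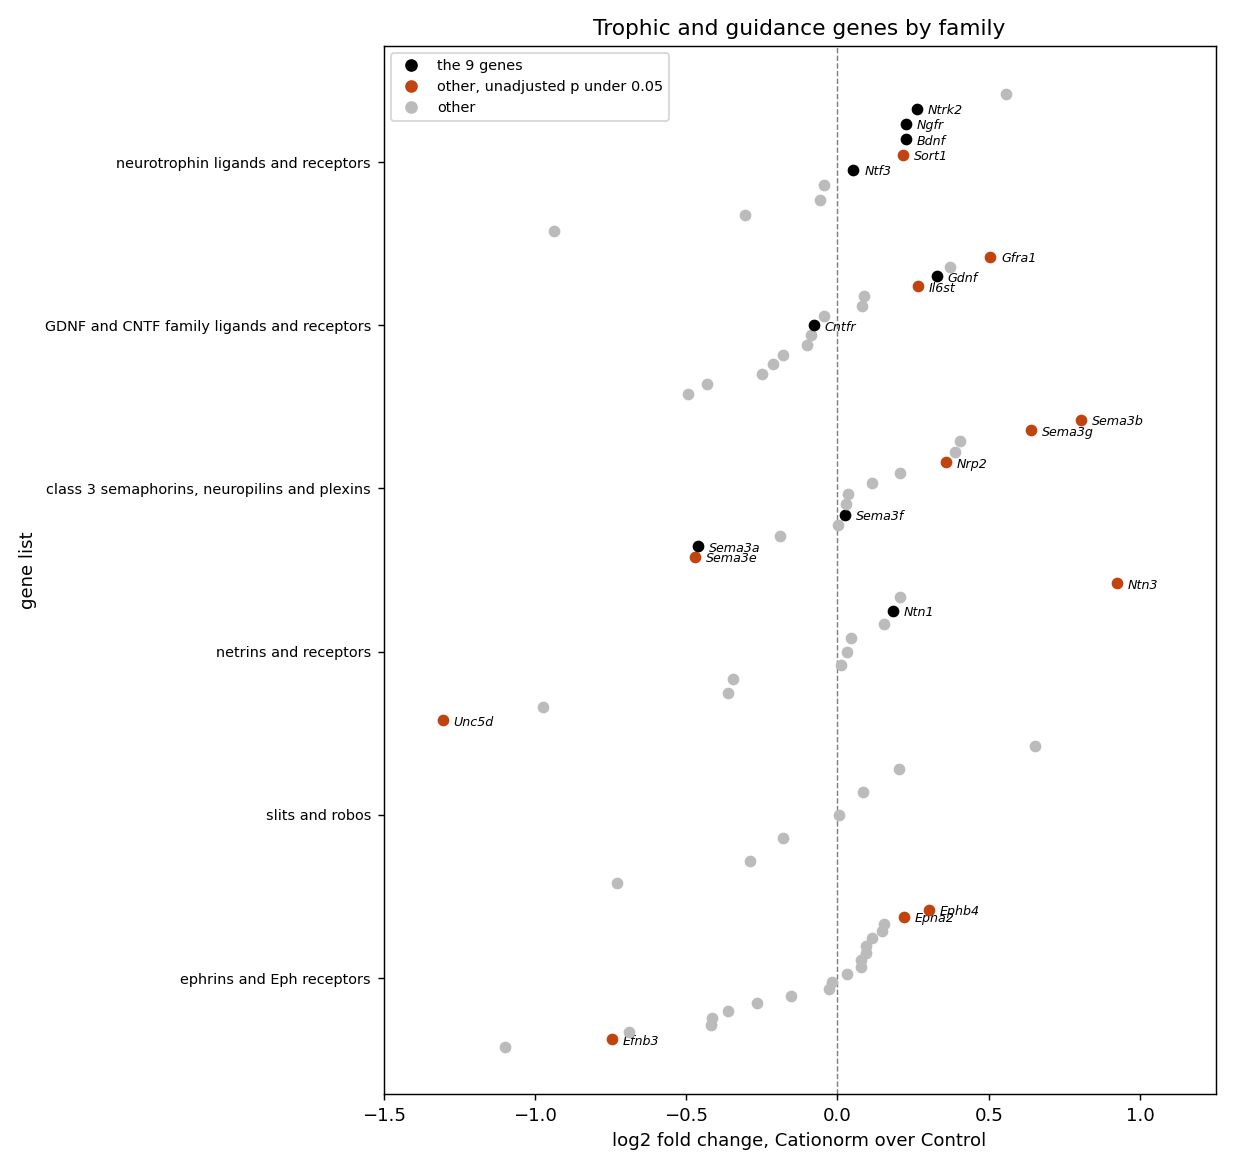
Log2 fold change of Cationorm over Control for the 77 tested genes of the 6 families, 1 point a gene, from edgeR with 3 libraries a group. Black points are the 9 genes, orange points are other genes at an unadjusted p under 0.05 and grey points the rest, and 0 genes passed after adjustment over all genes. The 9 genes lie between Sema3a at -0.46 and Gdnf at 0.33, inside the range of their families.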

How the data were processed

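Mouse corneal RNA was measured in 6 libraries. TRIzol extraction, mRNA enrichment and TruSeq library preparation were used, per the labels' protocols. The deposited table holds raw counts per gene symbol, with a column for each library, per the file headers. DESeq2 and the builds GRCm39 and mm39 are listed in the submitters' processing notes, with no role. For aligner, counter, strand setting and annotation release, names and versions were not given in the sources used here.

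Counts were scaled by TMM, filtered by filterByExpr and tested by quasi-likelihood in edgeR 4.0.16 (glmQLFTest, R 4.3.3), Cationorm against Control, with Benjamini-Hochberg adjustment over 18804 genes and a threshold of 0.05. Standard errors came from the fold change and F statistic, and intervals (95%) from the moderated t distribution. Alternatives were size factors of DESeq2, upper-quartile factors, no filter, a filter of 50 counts in all and 1 CPM in 3 libraries, limma-voom (limma 3.58.1), DESeq2 1.42.0, the replicate number as a block, and each library left out. Exon lengths and overlapping genes came from GENCODE M21 (GRCm38), and motifs were searched on both strands.

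The 9 genes and all lists were chosen with earlier results of these data known. By rule, partner genes were named at an unadjusted p under 0.05 or, failing that, for the smallest p of their list, and the 2 closest profiles per gene came from genes of at least 5 CPM, leaving out predicted models, with a prior count of 2. Cntf, Lum and the other keratocyte genes were named after their values were seen. Values of some partner genes are not reported here.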

Additional observations from a re-analysis of the deposited data

How the results depend on the processing

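Of the 9 genes 0 were called at an adjusted p under any of the 13 alternatives. At an unadjusted edgeR p under 0.05 there were 2 of the 9 without Control 3, Ngfr and Ntn1, against 14.9% of all genes. There was 1 without Cationorm 3 (Ntrk2, against 15.1% of all genes) and 1 without Cationorm 1 (Sema3a, against 3.74%). The 117 log2 fold changes of the 9 genes under the 13 alternatives kept direction in 113. The 4 that reversed were small: Ntf3 was at -0.0405 without Cationorm 2 and -0.0101 without Control 2, and Sema3f at -0.01 without either library (-0.00794 and -0.00934). Over all alternatives the log2 fold change ran from 0.08 to 0.45 for Bdnf, 0.04 to 0.51 for Gdnf, 0.08 to 0.43 for Ngfr, 0.10 to 0.45 for Ntrk2, -0.15 to -0.04 for Cntfr, -0.72 to -0.26 for Sema3a and 0.09 to 0.32 for Ntn1, and from -0.0405 to 0.1095 for Ntf3 and from -0.00934 to 0.05207 for Sema3f, with both ends set by leaving out a library. DESeq2 called 64 of 16706 genes with an adjusted p (0.383%) and 1 of the 76 partner genes and members that had one (Sema3b). With 1 library left out, edgeR called between 0 and 350 genes over all and between 0 and 2 of the 77 partner genes and members in the fit. The cause was not tested. The 350, of 19170 genes in that fit, were called without Cationorm 3. The 2 were then Unc5d (log2 fold change -2.14) and Epha8 (-1.98), named after seeing this, while 8 genes were called without Control 3 and 1 without Control 2. With the replicate number as a block, 0 genes of all and 0 of the 9 were called, with 879 genes at an unadjusted p under 0.05. Deviations of same-numbered libraries were weakly and negatively correlated, from -0.306 to -0.163. Those of differently numbered libraries had correlations from -0.169 to 0.351. The numbers were therefore not taken to pair the libraries. Depth limits Gdnf and Bdnf most, where counting error alone gives a coefficient of variation of 10.4% and 9.29%.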
